A study of Mus musculus with 7 samples.

Results

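Cells of embryonic day 10.5 (E10.5) that carry label 14 of the deposited clustering, called hem-like here from its hem ligand transcripts, were compared with cells of the same day that carry label 6, called cortical neuroepithelium as a working name only. The members were all cells with either label in the libraries of this day: 175 with label 14 and 621 with label 6, together 796 of the 1172 cells of E10.5 and of the 10261 cells deposited. The study profiled single cells of dissected dorsal forebrain, taken from CD-1 mice between E10.5 and E18.5, by Drop-seq, a droplet method in which each captured transcript carries a unique molecular identifier (UMI). CD-1 is an outbred strain, and no embryo was treated or mutated. E10.5 is a single sample with 2 libraries, written here as library 1 and library 2 (E10_1 and E10_2 in the plots), and the sources used here do not say how many embryos were pooled. The labels were numbers without names, made by clustering on the same transcripts, so every difference below is a description of this sample with no test, and the libraries are not labelled as separate animals.

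The cortical hem is the strip of neuroepithelium at the medial edge of the early cortex, next to the choroid plexus. It secretes Wnt and Bmp proteins that pattern the hippocampus, and it gives rise to many of the Cajal-Retzius cells that settle beneath the pial surface. Wnt proteins act on neighbouring cells through Frizzled and Lrp receptors and beta-catenin, R-spondins make receiving cells more responsive to them, and Bmp proteins act through Smad factors that switch on the Id genes. The neuroepithelium beside the hem depends on transcription factors such as Lhx2, which keeps cells cortical and restricts the hem.

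The hem-like cells made up 13.9% of the cells of library 1 (114 of 822, exact 95% Clopper-Pearson interval 11.6 to 16.4) and 17.4% of library 2 (61 of 350, 13.6 to 21.8). The label 6 cells made up 51.3% and 56.9%. All intervals here cover counting error only. The summed depth was 495383 and 323125 UMIs for the hem-like cells and 1515030 and 1223240 UMIs for label 6, with 3226.5 and 4037 UMIs in the median hem-like cell and 2892.5 and 5641 in the median label 6 cell. The median mitochondrial share was between 4.99% and 5.57% in the 4 sums. No barcode occurred in both libraries of this day. Label 14 was carried by no cell at E12.5 and by at most 12 cells of any later library: of its 213 cells in the series, 175 were from E10.5, 23 from E14.5 and 5, 4 and 6 from E15.5, E16.5 and E18.5.

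The working names were read against marker lists, in CPM (counts per 1000000 UMIs of the summed cells). The 16 hem ligand genes found in the deposited gene list, of 17 chosen, summed to 3403 and 3240 CPM in label 14 and to 136 and 95.6 in label 6. They summed to 901 and 649 in label 13 and to 829 and 542 in label 15, the other large groups of the day described below. The 19 genes of cortical identity separated the groups less: they summed to 4757 and 4264 CPM in label 6, 3002 and 2689 in label 14, 2971 and 3877 in label 13 and 1570 and 1352 in label 15. The name of label 6 thus rests on a list that label 14 and label 13 also carry. Label 14 also held cells with transcripts of Fgf8 and Fgf17, described below. Label 6 held a minority with subpallial transcripts: 68 of its 621 cells (10.95%) had a UMI of Dlx1, Dlx2, Gsx1 or Gsx2, against 1 of 175 hem-like cells. Dlx2 had 42 and 34 counts in label 6 and none in label 14, so that it was at least 4.58-fold and at least 2.99-fold lower there, with 3 counts per library taken as the floor. Leaving those 68 cells out gave 107 genes higher and 37 lower in place of the 108 and 40 below, with 102 and 35 shared.

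Counts were summed per label and library, expressed as CPM, and label 14 was divided by label 6 within each library. Of 4374 genes with a mean of at least 50 CPM in either label, 108 (2.47%) were at least 2-fold higher in the hem-like cells in both libraries and 40 (0.914%) at least 2-fold lower, 148 in all (3.38%). Genes that reached the minimum through one label only had to lean towards it: 24 of the 108 higher genes had a mean of at least 50 CPM in label 6, and 14 of the 40 lower ones in label 14. The counts and medians of lists below are over the members that reached the minimum in either label, so they describe the labels and support nothing by themselves. The other 4226 were neither, and the median log2 ratio of all 4374 was -0.02. The plot of ratios in one library against those in the other shows 26 genes at least 8-fold higher and 5 at least 8-fold lower in both. A single gene, Rgs16, a regulator of G protein signalling, passed 2-fold in opposite directions (log2 ratio -1.56 and 3.17). Across these genes the ratios of the libraries had a Pearson r of 0.735, a description over genes that share the same cell sums. On the higher side, Egr1, H19 and Smarca1 lay just inside the limit, with a weaker log2 ratio between 1.01 and 1.02, and H13, Smarca2 and Tusc3 just outside it, between 0.988 and 0.997. On the lower side, Noc2l, Nr2e1 and Fut9 lay inside, between -1.04 and -1.01, and Rexo2, Bcat1 and Tmod2 outside, between -0.998 and -0.957.

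**Figure D1:**
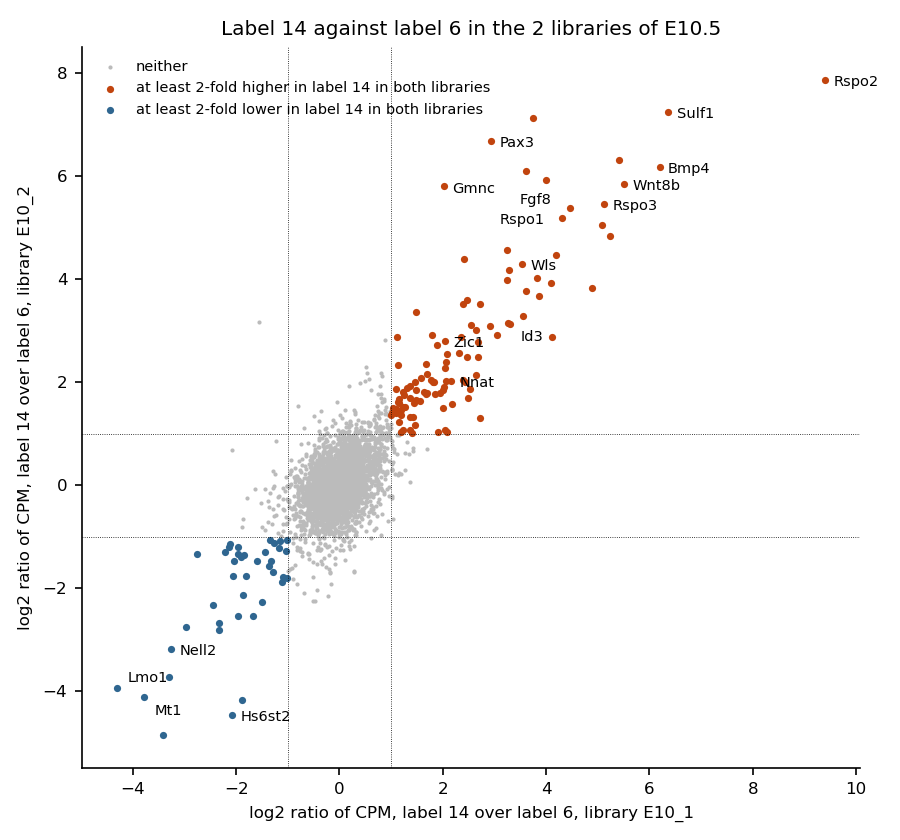
Each point is 1 of 4374 genes, with its log2 ratio of CPM (label 14 over label 6) in library E10_1 on the x axis and in E10_2 on the y axis. Orange points are the 108 genes at least 2-fold higher in both, blue points the 40 at least 2-fold lower, and dotted lines mark 2-fold; Rspo2 lies farthest to the upper right.

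The secreted signals of the hem had some of the largest ratios. Of 16 such genes in the deposited gene list 7 reached the minimum, each through label 14 only, and all 7 were called higher. Wnt8b, a Wnt ligand of the medial forebrain edge, stood at 658 and 703 CPM in the hem-like cells and at 14.5 and 12.3 CPM in label 6. That is a ratio of 45.3 (29.4 to 73.3) in library 1 and 57.3 (34.0 to 104) in library 2. Wnt3a, the ligand without which the hippocampus does not grow, had few counts: 15 and 9 in the hem-like cells and none among 621 label 6 cells. It was thus at least 15.3-fold and at least 11.4-fold higher. Wnt9a, another Wnt ligand, had 22 and 13 counts against 2 and 2, a ratio of 33.6 (8.27 to 295) and 24.6 (5.57 to 225). Wnt5a, a ligand that mostly acts without beta-catenin, had 36.3 and 15.5 CPM against 15.2 and 13.9, and the ratio was 2-fold in library 1 only. Wnt2b, a common marker of the hem at later stages, and Wnt1, a Wnt ligand of the midbrain and the dorsal midline, had no count in either label.

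The promoters of 2 of these ligand genes are shown as the reference sequence beside which their levels can be read. They come from RefSeq (GRCm38.p6) and run from 250 bases before to 50 bases after the start, read 5′ to 3′ on the gene's strand. Capitals mark GGCGCC, a GC-rich motif that Smad proteins can bind.
Wnt8b, chr19:44493222-44493521, plus strand: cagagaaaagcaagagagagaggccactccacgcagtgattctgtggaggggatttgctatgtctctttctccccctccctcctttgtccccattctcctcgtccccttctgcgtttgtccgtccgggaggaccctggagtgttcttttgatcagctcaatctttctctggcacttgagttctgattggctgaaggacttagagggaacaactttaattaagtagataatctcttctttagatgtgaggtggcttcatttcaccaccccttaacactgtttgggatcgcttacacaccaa
Rspo1, chr4:124986180-124986479, plus strand: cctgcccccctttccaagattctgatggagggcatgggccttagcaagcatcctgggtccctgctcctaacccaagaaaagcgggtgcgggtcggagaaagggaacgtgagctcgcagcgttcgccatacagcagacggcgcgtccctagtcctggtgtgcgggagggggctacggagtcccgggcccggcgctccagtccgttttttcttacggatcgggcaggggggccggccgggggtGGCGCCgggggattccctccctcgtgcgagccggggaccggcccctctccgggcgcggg
The Wnt8b window holds neither this motif nor CTTTGA, the core bound by the TCF and LEF partners of beta-catenin, on either strand, and the Rspo1 window holds GGCGCC once.

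All 3 R-spondin genes that were measured at this level were higher in the hem-like cells. Rspo3 stood at 1126 and 1108 CPM against 32.3 and 25.3, a ratio of 34.8 (26.0 to 47.6) and 43.7 (30.3 to 65.3). Rspo1 stood at 394 and 297 CPM against 19.8 and 8.18, a ratio of 19.9 (13.5 to 30.3) and 36.3 (18.9 to 78.2). Rspo2 was almost absent from label 6: it had 220 and 123 counts in the hem-like cells and 1 and 2 in label 6, although label 6 held more UMIs in each library. Its ratio was 673 (120 to 26694) and 233 (63.1 to 1944), with intervals that wide because of those few counts. Wls, the carrier that brings Wnt proteins to the cell surface, was at 523 and 464 CPM against 44.9 and 23.7. These genes were called for a ratio of at least 2-fold in both libraries, so a separation of that size follows from the rule. The rule does not set how much larger the ratios are, but the labels themselves were made by clustering on the same transcripts.

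The Bmp ligands followed at lower levels. Bmp4 had 24 and 19 counts in the hem-like cells and 1 count in each library of label 6, a ratio of 73.4 (11.97 to 3018) and 71.9 (11.4 to 2989). Bmp5 stood at 60.6 and 89.7 CPM against 3.30 and 4.09. Bmp7 had 9 and 13 counts against 5 and 4 and stayed under the 50 CPM minimum, with a ratio of 5.50 (1.66 to 20.9) and 12.3 (3.80 to 51.8). Bmp6 had 4 counts in all, and Gdf7 was absent from the deposited gene list. Ttr, a transcript of differentiated choroid plexus, had 3 counts in the hem-like cells of library 1 and none in any other of the 4 sums. The heparan sulphate editing enzyme Sulf1, which changes how cells bind Wnt, Bmp and Fgf proteins, was second to Rspo2 among genes over 100 CPM. It stood at 218 and 371 CPM in the hem-like cells, with 4 and 3 counts in label 6, a ratio of 82.6 (31.3 to 309) and 151 (50.6 to 745). Its relative Sulf2 was at 125 and 80.5 CPM against 21.8 and 22.1.

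**Figure D2:**
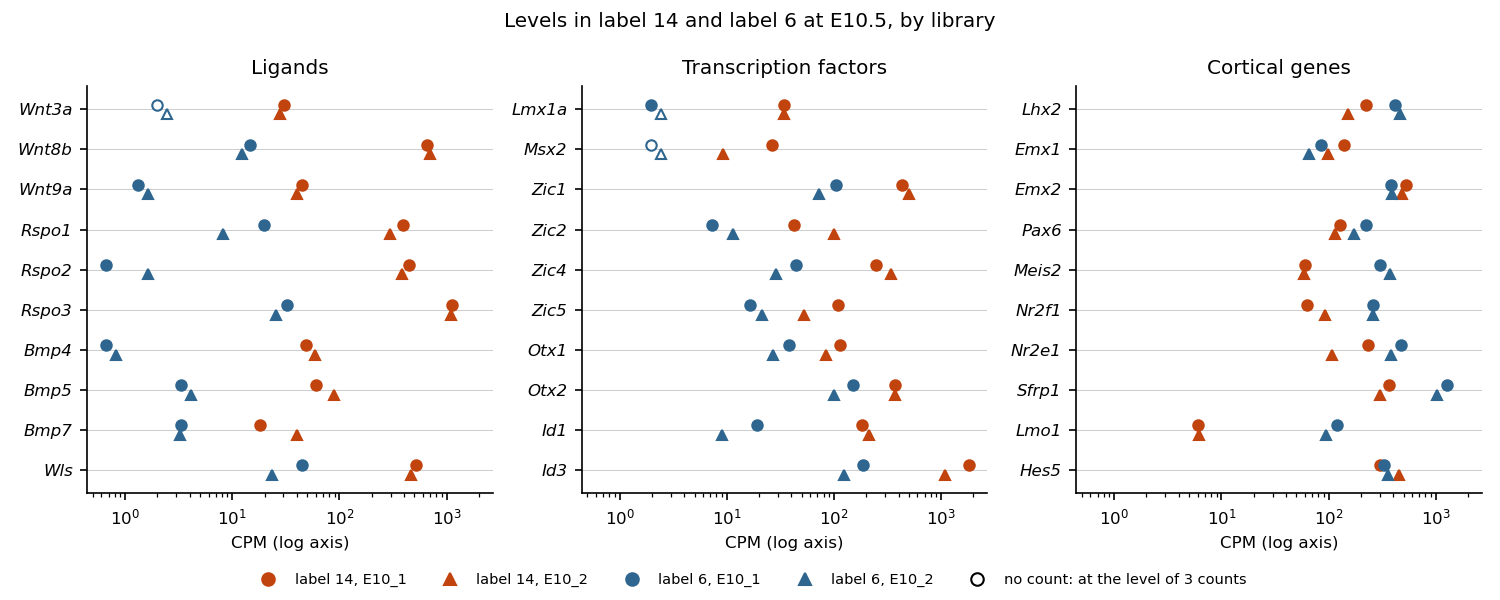
CPM on a log axis for 3 groups of genes, with circles for library E10_1 and triangles for E10_2, orange for label 14 and blue for label 6; open symbols mark a count of 0, drawn at the level of 3 counts. The ligands and transcription factors lie to the right in label 14, and Meis2, Nr2f1, Sfrp1 and Lmo1 lie to the right in label 6, while Emx1, Emx2, Pax6 and Hes5 lie close together.

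Of 11 transcription factor genes of the hem and roof plate at the minimum level, 9 were higher in the hem-like cells, none was lower and the median log2 ratio was 2.02. The 9 include Id1 and Id3, which the Bmp list below counts as well. All 11 reached the minimum in label 14 and 4 did so in label 6, of which 3 were higher. Zic1, Zic2, Zic4 and Zic5, zinc finger factors of the dorsal midline, were among them. Zic1 stood at 428 and 504 CPM against 104 and 72.8, a ratio of 4.13 (3.34 to 5.11) and 6.93 (5.32 to 9.08). Zic4 stood at 244 and 344 CPM against 44.2 and 28.6. Zic2 had log2 ratios of 2.55 and 3.11, and Zic5 of 2.72 and 1.31. Otx2, a head patterning factor, was at 373 and 368 CPM against 150 and 99.7, and its relative Otx1 had log2 ratios of 1.56 and 1.63. Lmx1a, the factor that defines the hem and the roof plate, was scarce: it had 17 and 11 counts against 3 and 0, a ratio of 17.3 (5.01 to 92.3) in library 1 and at least 13.9-fold in library 2. Msx2, a roof plate factor downstream of Bmp, had 13 and 3 counts against none and was at least 13.2-fold higher in library 1. Dmrt3, a factor of the medial cortex, was higher in library 1 only (log2 ratio 1.69 and 0.70), and Gli3, which the hem needs in order to form, did not reach 2-fold (log2 ratio -0.20 and -0.32).

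These Zic genes also share a layout in the genome. On GRCm38, Zic1 (chr9:91358058-91365810, minus strand) and Zic4 (chr9:91362413-91389348, plus strand) overlap head to head with 3397 bases between their annotated starts, and reads where they overlap cannot be assigned to one of them, since the counted strand is not given in the sources used here. Zic5 (chr14:122456795-122465677, minus strand) and Zic2 (chr14:122475435-122479852, plus strand) face away from each other, with the called noncoding gene 2610035F20Rik between them. Of the 144 called genes with a single GENCODE M21 entry, 8 neighbouring pairs lay within 50 kb of each other. Both members of each pair were on the same side. With 108 of the 148 called genes higher, many pairs would share a side anyway. How often this occurs among all genes considered was not tested. Rmst and Gm26700 overlap on opposite strands as Zic1 and Zic4 do, so the members of these pairs may share reads. The promoters of the overlapping Zic pair are printed because both genes of this overlapping pair are named hem and roof plate factors, with GGCGCC in the Zic1 window and TCAAAG, the reverse complement of CTTTGA, in the Zic4 window in capitals. The RefSeq start used for the Zic4 window lies inside the GENCODE span of Zic4 and beyond the 5′ end of Zic1, so that it is another start than the one behind the distance above.
Zic1, chr9:91365719-91366018, minus strand: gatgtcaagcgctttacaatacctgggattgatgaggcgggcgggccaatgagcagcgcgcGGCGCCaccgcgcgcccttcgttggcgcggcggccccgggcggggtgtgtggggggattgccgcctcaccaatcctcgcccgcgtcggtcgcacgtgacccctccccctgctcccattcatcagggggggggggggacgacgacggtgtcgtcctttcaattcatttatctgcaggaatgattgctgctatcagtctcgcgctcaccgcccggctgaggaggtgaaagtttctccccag
Zic4, chr9:91368722-91369021, plus strand: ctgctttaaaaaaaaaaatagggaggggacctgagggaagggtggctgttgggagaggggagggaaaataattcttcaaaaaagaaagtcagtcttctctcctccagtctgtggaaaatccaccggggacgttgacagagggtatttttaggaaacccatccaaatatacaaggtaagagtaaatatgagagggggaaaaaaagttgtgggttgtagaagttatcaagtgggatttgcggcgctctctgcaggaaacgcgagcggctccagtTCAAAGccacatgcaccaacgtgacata

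The motifs were also counted near the genes that differed. CTTTGA stood on either strand in 10.9% of the 92 listed promoters of the higher genes and 16.3% of the 43 of the lower genes, against 10.9% of the 4185 of all genes considered and 5257 of all 32851 promoters of 300 bases in the table. For GGCGCC, which is its own reverse complement, the shares in the same order were 17.4%, 18.6%, 24.1% and 11.9%. The letters of the motifs are too unlike for one to lie within the other. A match is a string of letters in this window only.

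Targets of the pathways were read next. Of 12 Wnt receptor, antagonist and target genes at the minimum level, 3 were higher and 2 lower, with a median log2 ratio of 0.16. Axin2, a feedback inhibitor and standard readout of beta-catenin signalling, stood at 92.9 and 99.0 CPM in the hem-like cells against 22.4 and 20.4, a ratio of 4.14 (2.60 to 6.65) and 4.85 (2.78 to 8.53). Nkd1, another induced inhibitor, stood at 84.8 and 86.7 CPM against 13.2 and 15.5. Lef1, a nuclear partner of beta-catenin, did not reach 2-fold (log2 ratio 0.46 and 0.36), and Tcf7l2 was level (0.03 and -0.00). Wnt7b, a Wnt ligand, was at 137 and 86.7 CPM against 24.4 and 27.0. The lower ones were Sfrp1, a secreted Wnt antagonist, at 367 and 303 CPM against 1281 and 1031, and Ccnd1, the G1 cyclin, at 317 and 300.2 CPM against 764 and 651.

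The Bmp list gave 3 higher and 1 lower of 12, with a median log2 ratio of 0.43. Id3, an inhibitor of basic helix-loop-helix factors that Bmp induces, stood at 1817 and 1077 CPM in the hem-like cells against 185 and 123, a ratio of 9.83 (8.59 to 11.3) and 8.72 (7.19 to 10.6). Id1 stood at 182 and 214 CPM against 19.1 and 8.99. Fstl1, a secreted Bmp antagonist, was higher as well, with log2 ratios of 1.69 and 1.79. Id4 went the other way, at 238 and 282 CPM against 856 and 724, a 3.59-fold (2.97 to 4.38) and 2.57-fold (2.07 to 3.23) lower level. The receptors and Smad genes at the minimum level, Bmpr1a, Acvr2a, Acvr2b, Smad1, Smad4 and Smad5, had log2 ratios between -0.58 and 0.88. No receptor or Smad gene at the minimum level passed 2-fold in both libraries.

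In the Fgf list, 3 of 6 genes were higher and none lower. Fgf8, the organiser signal of the rostral midline, had 36 and 33 counts in the hem-like cells against 5 and 0, a ratio of 22.0 (8.61 to 71.9) in library 1 and at least 41.6-fold in library 2. Fgf17, its relative, had 29 and 30 counts against 3 and 8, a ratio of 29.6 (9.16 to 152) and 14.2 (6.36 to 35.8). Dusp6, a phosphatase induced by Fgf signalling, stood at 107 and 99.0 CPM against 17.2 and 12.3. Fgfr1, the main receptor here, had log2 ratios of 0.54 and 0.49. Spry2, Spry4, Etv4 and Etv5, further targets, had between 1 and 10 counts in each sum and are not compared.

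The cortical identity list had 17 genes at the minimum level, of which none was higher, 6 were lower and 11 were neither, with a median log2 ratio of -0.42. Meis2, a homeobox factor, stood at 60.6 and 58.8 CPM in the hem-like cells and at 304 and 377 CPM in label 6. It was 5.01-fold (3.46 to 7.52) and 6.41-fold (4.06 to 10.7) lower. Nr2f1, the area patterning receptor also called COUP-TFI, was at 62.6 and 92.8 CPM against 257 and 258. Nr2e1, a nuclear receptor of neural progenitors, and Sox21, a Sox factor, were lower with log2 ratios of -1.02 and -1.81 and of -1.35 and -1.07. Lhx2, whose loss turns cortex into hem, was at 222 and 152 CPM against 417 and 459, and missed the limit in library 1 (log2 ratio -0.91 and -1.60).

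Other cortical factors did not differ by 2-fold in both libraries. Emx2, a homeobox factor of the medial cortex, was at 529 and 483 CPM in the hem-like cells and at 384 and 389 CPM in label 6. Emx1 had log2 ratios of 0.71 and 0.58, Dmrta2 of 0.75 and 1.11 and Fezf2 of 0.85 and 0.55, all on the higher side. Pax6, the factor of lateral progenitors, had -0.81 and -0.59. The hem-like cells therefore carried Emx1, Emx2, Dmrta2 and Fezf2 transcripts at no less than the level of label 6.

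Among the genes lower in the hem-like cells, the 3 with the largest ratio over 100 CPM, Lmo1, Mt1 and Nell2, were not on the cortical list. Lmo1, a LIM domain cofactor, had 3 and 2 counts in the hem-like cells against 181 and 116, a ratio of label 6 over label 14 of 19.7 (6.64 to 96.6) and 15.3 (4.15 to 128). Mt1, a metallothionein that binds zinc and copper, had 4 and 2 counts against 168 and 130, a ratio of 13.7 (5.27 to 51.0) and 17.2 (4.66 to 143). Its neighbour Mt2 was lower too, with log2 ratios of -1.91 and -1.40. Nell2, a secreted glycoprotein, was at 10.1 and 12.4 CPM against 96.4 and 112. Hs6st2, a heparan sulphate sulphotransferase, was at 36.3 and 6.19 CPM against 153 and 136, so the size of its difference rests on library 2. Ptprz1, a receptor phosphatase of radial glia, Pou3f3, a POU factor, and Slc25a5, the mitochondrial ADP/ATP carrier, had log2 ratios between -2.55 and -1.33 in both libraries.

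Genes higher in the hem-like cells outside the signalling lists were Rmst, a long noncoding RNA of neural progenitors, Ly6h, Lhx5, a LIM homeobox factor, and Tpbg, a membrane protein that dampens Wnt signalling. Rmst stood at 168 and 226 CPM against 11.9 and 13.9, but its body overlaps the called gene Gm26700 on the opposite strand. Lhx5 stood at 101 and 167 CPM against 8.58 and 17.2, and Tpbg at 119 and 118 CPM against 15.8 and 13.9. Nnat, an imprinted gene for a membrane protein, was at 4891 and 3989 CPM against 1094 and 982, a ratio of 4.47 (4.197 to 4.76) and 4.06 (3.75 to 4.40). It was 1 of 3 imprinted growth genes of 11 that were higher, with H19 and Ndn. In the matrix list Col2a1, a fibrillar collagen, and Sparc, a matrix glycoprotein, were 2 of 6, and in the guidance list Slit2, a repellent of axons, and Cdh11, a cadherin, were higher and Epha3, an ephrin receptor, lower (log2 ratio -2.33 and -2.81) of 10.

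Several lists held no called gene. With 3.38% of all genes called, 0 of a list of 6, 8, 10, 32 or 38 lies near that share and says nothing about the list. None of 32 S phase genes and none of 38 G2 and M phase genes passed 2-fold in both libraries, with median log2 ratios of -0.33 and -0.03. The same held for all 10 glycolysis genes (median -0.09), all 8 Notch genes (0.26) and all 8 genes that fall as cortical progenitors age (-0.18). Hmga2, a chromatin protein of young progenitors, was at 493 and 582 CPM against 962 and 1097 (log2 ratio -0.97 and -0.92). Hes5, a Notch target, had -0.14 and 0.34. Dlk1, an imprinted Notch ligand relative, was lower in library 1 only (-1.53 and -0.34). The 6 genes of intermediate progenitors gave no call, and of 8 pan-neuronal genes only Elavl3 was lower (-1.97 and -1.33). The plot of gene lists shows these counts together.

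**Figure D3:**
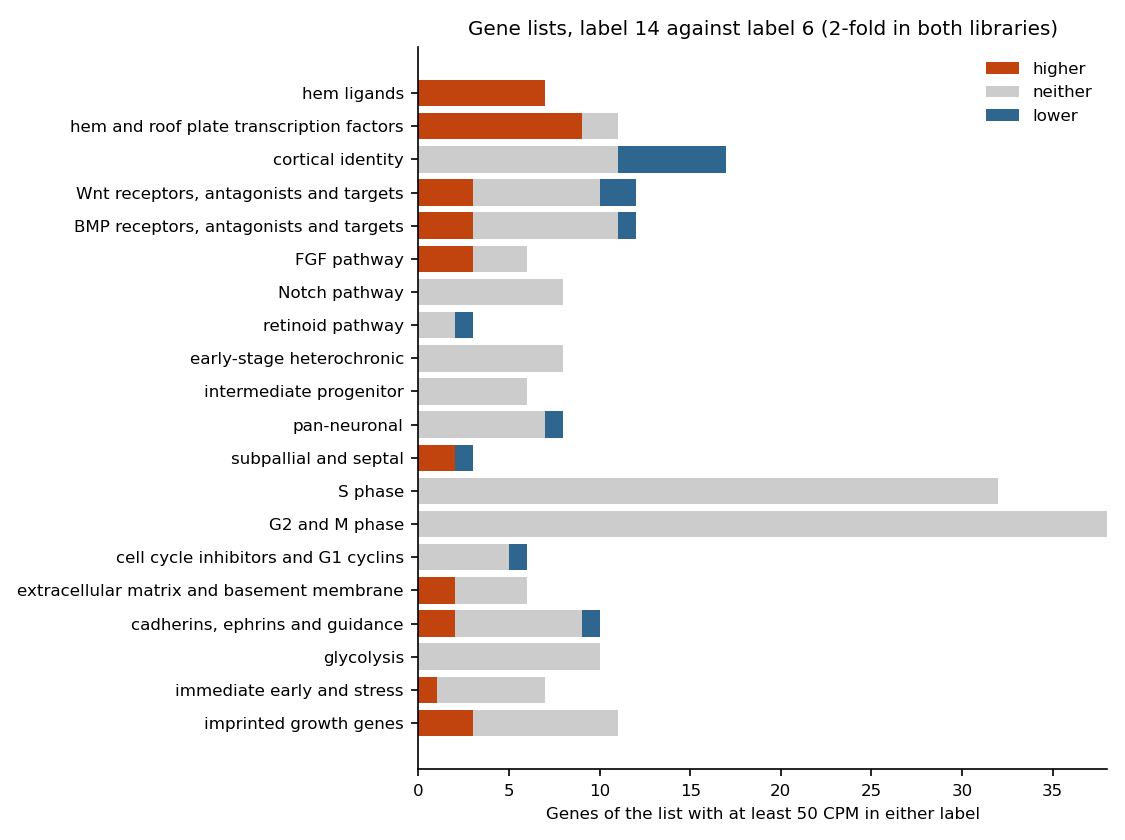
For each gene list with at least 3 members at 50 CPM or more in either label, the bar counts its members that were higher in label 14 (orange), neither (grey) or lower (blue). The hem ligands are all 7 higher, 9 of 11 hem and roof plate factors are higher, and the 32 S phase and 38 G2 and M phase genes are all grey. Of all 4374 genes, 3.38% were called.

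The R-spondins and Wnt8b were seen in many cells, and Wnt3a, Lmx1a and the Fgf genes in few. Wnt3a and Lmx1a had few counts to spread over cells, 15 and 9 and 17 and 11. Each cell was thinned to 1000 UMIs, which left out 21 hem-like and 67 label 6 cells below that depth. Rspo3 then had a UMI in 84 of 154 hem-like cells (54.5%, 46.3 to 62.6) and in 17 of 554 label 6 cells (3.07%, 1.80 to 4.87). Before thinning the shares were 82.3% and 6.44%. Wnt8b was seen in 77 of 154 and 6 of 554 cells, Rspo2 in 31.2% and 0.181%, and Id3 in 61.7% and 11.7%. Lhx2 was seen in 17.5% of hem-like and 32.9% of label 6 cells, and Lmo1 in 0.649% and 9.57%. Wnt3a and Lmx1a were each seen in 3 of 154 thinned hem-like cells, and in 21 and 19 of 175 before thinning, which is near the level of 1 UMI and sets no order.

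Other cells of the day were read beside these shares, with a median of 2783 UMIs in the 66 cells of label 13, which carries Cajal-Retzius transcripts, and 3838 in the 142 cells of label 15, which carries mesenchymal transcripts. Wnt8b was seen in 3.23% of thinned label 13 cells and in none of 121 label 15 cells, and Rspo2 in none of 62 and in 1.65%. Rspo3 was seen in 29.0% of label 13 cells (18 of 62), and its level there was 741 and 543 CPM. Wls was seen in 30.6% of label 15 cells and Id3 in 38.8%. Of the 108 higher genes, 13 (12.04%) were at a still higher level in label 13 and 17 (15.7%) in label 15 than in label 14 in both libraries. Sparc and Fstl1 were such genes in label 15, at 760 and 629 CPM and at 721 and 538 CPM, and Nnat and Lhx5 were such genes in label 13. Signalling genes also appeared in label 15: Bmp4 stood there at 103 and 90.4 CPM against 48.4 and 58.8 in label 14, Msx2 at 76.5 and 37.7 against 26.2 and 9.28, and Axin2 at 95.02 and 105 against 92.9 and 99.0.

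**Figure D4:**
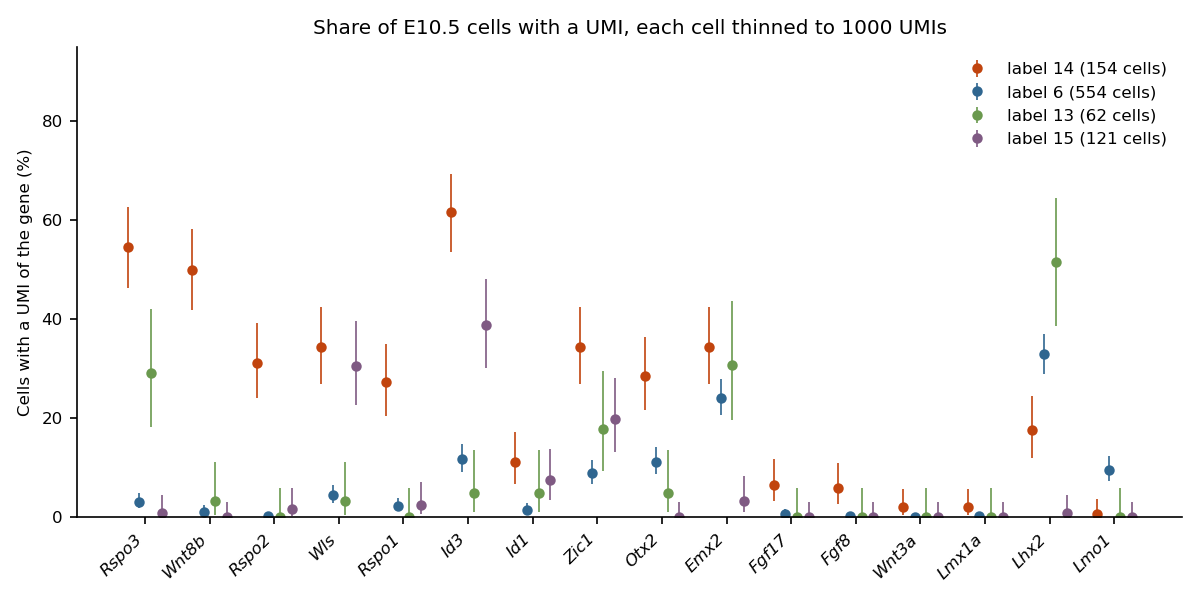
Share of E10.5 cells with at least 1 UMI of each gene after thinning every cell to 1000 UMIs, by label, with exact 95% binomial intervals for counting error. Rspo3, Wnt8b, Rspo2 and Rspo1 are highest in label 14 (orange), Rspo3 is also at 29.0% in label 13 (green), Wls and Id3 also appear in label 15 (purple), and Lmo1 is highest in label 6 (blue).

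Marker lists of other cell types were summed in the same way. The 20 mesenchymal and meningeal genes summed to 123 and 133 CPM in the hem-like cells, 71.3 and 65.4 in label 6 and 6625 and 5264 in label 15, and 11 of the 20, among them the fibroblast collagen Col1a1 and the mesenchymal factor Twist1, were at 0 in the hem-like cells. Without the 2 hem-like and 2 label 6 cells that had at least 3 such or endothelial genes, 105 genes were higher and 40 lower, 104 and 39 of them shared. The 20 choroid plexus genes summed to 145 and 164 CPM against 10.6 and 8.18, with 12 at 0 in the hem-like cells. Their part in the result was not tested beyond leaving out the 8 hem-like cells with at least 3 such genes. That gave 108 genes higher and 37 lower, 101 and 37 of them shared. The 14 endothelial, 11 mural, 12 macrophage and 9 erythroid genes each summed to at most 37.1 CPM in the hem-like cells. The 23 diencephalic and hypothalamic genes summed to 176 and 145 CPM against 131 and 115. The Cajal-Retzius list reached 182 and 306 CPM in the hem-like cells, against 45.5 and 54.8 in label 6 and 3296 and 2957 in label 13, with Reln at 1 and 3 counts and Trp73 at 0.

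The hem-like cells were not uniform. Chosen after these values were seen, 26 of the 175 cells had a UMI of Fgf8 or Fgf17 and 51 had a UMI of Wnt3a, Lmx1a, Bmp4 or Msx2, while 7 had both and 105 had neither. The product of the 2 shares gives 7.58 cells with both. By library, 5 cells had both against a product of 4.21 in library 1, and 2 against 3.43 in library 2. This product assumes cells of equal depth, so it cannot say whether the sets are related. A UMI of Wnt3a, Lmx1a, Bmp4 or Msx2 was seen in 26.9% of the Fgf cells and in 29.5% of the others. Depth differed too, with a median of 3439 UMIs in cells of the first set only, 5329.5 in those of the second set only and 2948 in those with neither. After thinning to 1000 UMIs, Rspo2 was seen in 22 of 50 cells of the Wnt3a set and in 26 of the 104 other hem-like cells. Pax3, a dorsal midline factor, was seen in 4 of 26 Fgf cells and in 1 of the 128 others.

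Levels in the cells of 1 set only are shown in the plot of these sets. This leaves out the 7 cells with both, so the Fgf cells compared are those without a UMI of Wnt3a, Lmx1a, Bmp4 or Msx2. Rspo2 stood at 28.0 and 149 CPM in the 10 and 9 Fgf cells and at 741 and 666 CPM in the 27 and 17 cells of the Wnt3a set. Id3 stood at 419 and 315 CPM against 2725 and 1852, and Id1 at 0 and 182 against 388 and 434. The reverse held for Six3os1, a noncoding RNA that overlaps the rostral factor Six3 on the opposite strand, at 559 and 282 CPM against 79.8 and 67.5. Zic4 stood at 475 and 497 CPM against 171 and 222. In the 7 cells with both, summed over the libraries, Rspo2 stood at 863 CPM, Id3 at 565, Six3os1 at 417 and Zic4 at 387. These genes were chosen for a difference. Of the 36 genes followed in the sets, 16 had levels that did not overlap between the sets over the 2 libraries, and so had 1514 of the 4130 genes that reached 50 CPM in either set (36.7%), so that the lack of overlap is common. Others overlapped: Lhx2 stood at 224 and 166 CPM against 182 and 67.5, and Emx2 at 475 and 730 against 598 and 482. The sets hold few cells, and the Fgf cells of library 1 carried 35759 UMIs in all, so a level there of 28.0 CPM is 1 count. Without all 26 Fgf cells, 99 genes were higher and 41 lower, 88 and 34 of them shared.

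**Figure D5:**
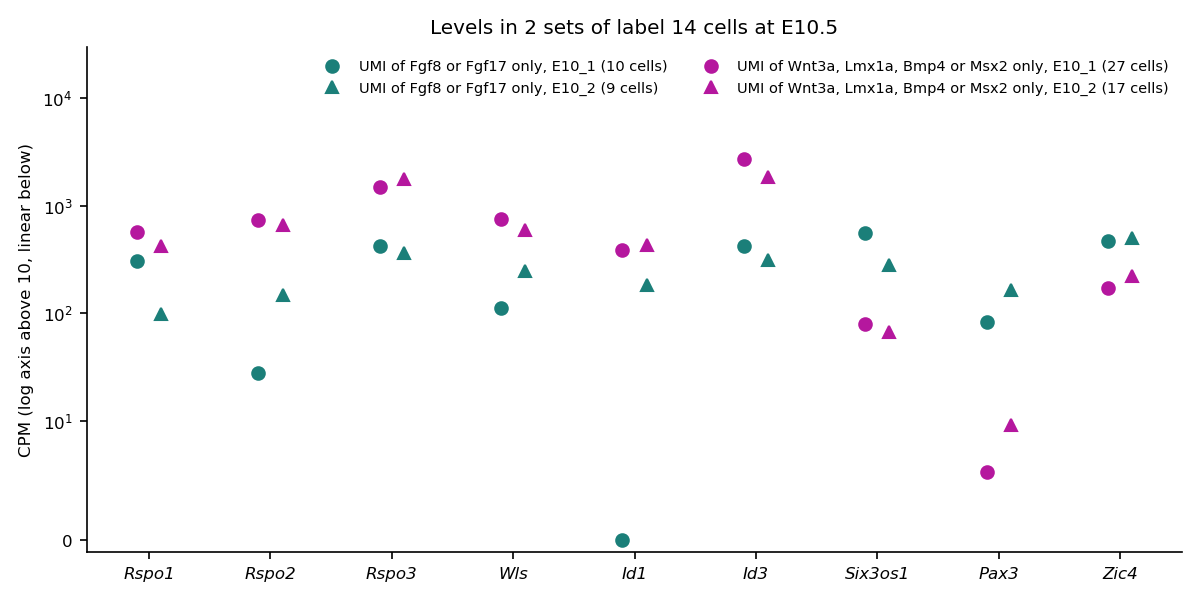
CPM of 9 genes in label 14 cells with a UMI of Fgf8 or Fgf17 only (teal) and of Wnt3a, Lmx1a, Bmp4 or Msx2 only (magenta), with circles for library E10_1 and triangles for E10_2; the axis is logarithmic above 10 and linear below. Rspo1, Rspo2, Rspo3, Wls, Id1 and Id3 are higher in the magenta set, and Six3os1, Pax3 and Zic4 in the teal set.

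Some called genes rested on very few cells. Gmnc, a factor of multiciliated cells, was called higher from 4 and 44 counts against 0 and 0, but 35 of the 48 counts came from 1 cell and only 6 of 175 hem-like cells had any. Gmnc was also seen in 14.5% of thinned label 13 cells. Pax3 had 10 and 27 counts in 18 hem-like cells. For Rspo2, by contrast, the cell with the most held 19 of 343 counts.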

How the data were processed

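Papain-dissociated cells of the E10.5 dorsal forebrain were profiled by Drop-seq (protocol 3.1 per the labels' protocols). The mm10 build and Seurat 3.1.5 are named in the submitters' processing notes. The authors deposited counts, whole UMI numbers for 21862 genes and 10261 cells, with a cluster number per cell. Which aligner and annotation were used, and on which strand reads were counted, is not given in the sources used here.

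Counts of label 14 and of label 6 were summed in each E10.5 library and divided by the plain total, giving CPM. A gene was higher or lower when its ratio was at least 2-fold in both libraries, among genes with a mean of at least 50 CPM in either label. A count of 0 was set to 3 counts for a ratio, and genes with at most 3 counts in both labels got none. Ratio intervals are exact conditional binomial (95%). The sample is 1 and the labels come from the same counts, so no p-value was computed. The calling step was run on simulated counts with counting error only, and the genes changed there had at least 50 CPM in label 6. That run held no variation between cells or libraries, so it checks the code and not the calls. Doublets were called with Scrublet in scanpy 1.11.5 at an expected 5% (13 of 1172 cells, 1.11%, 2 of them in label 14 and 7 in label 6) and kept except in an alternative. TMM and median-of-ratios scaling came from edgeR 4.0.16 in R 4.3.3. Other alternatives changed the fold, the minimum, the cells used and the summing.

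Named genes were, per direction, the 12 with the largest smaller ratio among those called with at least 100 CPM in the larger label, up to 4 per direction of each list, and 28 genes given in any case. Mitochondrial, ribosomal protein, haemoglobin, Xist, Tsix, Y-linked and unnamed genes were left out of the ranking. Other genes of the X chromosome, such as Hs6st2 and Slc25a5, were kept. Other genes were named after their values were seen, among them the Fgf, Bmp5, Zic2, Zic5, Gmnc, Pax3 and Dlx2 results. The members and all 33 gene lists were chosen with earlier results of these data known. Coordinates are from GENCODE M21 (GRCm38), where 20389 gene symbols matched. Promoters were found for 91 of 133 named genes. Some results are not reported here.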

Additional observations from a re-analysis of the deposited data

How the results depend on the processing

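Of 108 higher and 40 lower genes, a 3-fold limit left 67 and 16, a minimum of 100 CPM left 49 and 25, and no minimum gave 429 and 161. Thinning to 1000 UMIs gave 95 lower genes, 22 of them shared, and cells with at most 5% mitochondrial UMIs gave 62, with 29 shared. Called in a single library, the counts ranged from 108 (both libraries) to 255 higher and from 40 to 110 lower: without replicate 1, meaning library 1, 255 and 110, and without replicate 2, 147 and 87. TMM scaling moved the median log2 ratio of all genes from -0.02 to -0.12 and gave 97 and 47, and median-of-ratios scaling gave 99 and 46. The thinned higher count (145), the mean of cell levels (121 and 52), leaving out called doublets (109 and 42) and the settings of the report stayed within 1.5 times of 108 and 40. The genes themselves changed more than the counts. Thinning shared 73 of its 145 higher genes with the 108, and the 5% mitochondrial limit 83 of its 141. The mean of cell levels shared 89 of its 121 higher and 32 of its 52 lower genes. No named gene changed direction under any alternative where it was called, but sizes moved by more than the spread of the libraries in 48 named genes under thinning (29 did not), 46 at most 5% mitochondrial (45 did not), 40 by the mean of cell levels (65 did not), 27 without the Fgf cells and 21 under TMM scaling. No paired analysis was possible because the labels give 1 sample for the stage, so that no test exists to which a block could be added; the labels were compared within each library. Why the counts moved was not tested. Depth limits Wnt3a, Wnt9a, Lmx1a, Msx2, Bmp4, Bmp7 and Fgf8 to few counts.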

Other observations

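Label 14 was also present at E14.5, in 11 and 12 cells of its libraries, with 32776 and 29938 UMIs in all. In these cells Rspo3 had 137 and 68 counts, Rspo1 50 and 26, Rspo2 40 and 32, Wnt8b 23 and 28 and Wls 39 and 27. Lmx1a had 9 and 7 counts and Wnt3a 7 and 4, while Wnt2b, named above as a marker of the later hem, had 1 and 0. Fgf8, Fgf17, Bmp4, Sfrp1 and Ttr had none in either library, where 3 counts correspond to 91.5 and 100.2 CPM. Dkk3, a secreted protein of the Dickkopf family, had 47 and 23 counts there, against 9 and 9 in the hem-like cells of E10.5 at a much greater depth. The number of cells is small, and stage and library cannot be told apart.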
